A study of Rattus norvegicus with 18 samples.

Results

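Lipid-associated macrophages are described by a short set of genes, of which 10 were followed here: Trem2, Apoe, Lpl, Cd36, Fabp4, Fabp5, Gpnmb, Spp1, Cd9 and Lgals3. The members were taken by gene symbol from the rows of the 4-week and 12-week tables, each of which lists 30643 genes. This gave 9 of the 10 genes in both tables, while Cd36, a scavenger receptor for fatty acids, was not analysed here. The members were set by name and not by a rule on the measured values. Earlier results of these data were known when the list was chosen.

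The 18 RNA sequencing libraries came from cells of the rat knee synovium, the tissue that lines the joint, sorted with magnetic beads for CD11b/c, an integrin pair on monocytes, macrophages and other myeloid cells. All rats were wild type male Sprague Dawley, aged 12 weeks at surgery, and every rat, sham included, had its joint capsule opened. OA rats also had the anterior cruciate ligament and the medial meniscotibial ligament cut, a model of post traumatic osteoarthritis, whereas in sham rats no ligament was cut. Tissue was taken at 4 weeks (5 OA and 5 sham libraries, each a pool of 4 rats) or 12 weeks (4 OA and 4 sham libraries, each a pool of 3 rats).

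Macrophages that take up lipid from dying cells, myelin or fat stores turn on a shared program. The receptor Trem2 senses lipids and lipoproteins such as Apoe at the cell surface and signals through the adaptor Tyrobp. Lpl releases fatty acids from lipoprotein triglyceride, Fabp4 and Fabp5 carry them inside the cell, and Gpnmb, Spp1, Cd9 and Lgals3 are membrane, secreted and lysosome-linked proteins that rise in the same cells in fat tissue, atheroma and brain. Several of these genes are also used outside this state: Spp1 by osteoclasts and bone cells, Fabp4 and Lpl by adipocytes and some endothelial cells, and Cd9 by fibroblasts and many other cells.

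Reads recovered from the deposited values ranged from 4662344 to 18080503 per library, and the lowest total belonged to sham replicate 3 at 4 weeks. The 9 genes together took 0.551% to 0.919% of a library's reads. None was near the limit of detection, with at least 116 reads for every gene in every library. All 14 macrophage markers looked at were in the tables, and Csf1r, the receptor for the main macrophage growth factor, ranged from 20785 to 36139 normalized reads over the 18 libraries. Markers of other cells were also present. The summed level of 11 fibroblast markers was 51872 to 119061 normalized reads at 4 weeks and 62838 to 117699 at 12 weeks, and that of 12 endothelial markers 43603 to 58518 and 42943 to 69841. The 12 adipocyte markers summed to 3255 to 5422 normalized reads at 4 weeks and 5425 to 8840 at 12 weeks. Among them Adipoq and Plin1 stayed at or below 72.0 normalized reads in every library, so other markers of the list made up most of its sum. No listed marker of these 3 cell types was at 0 throughout. In such bulk samples fewer cells of a type and less RNA per cell cannot be told apart.

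Normalized reads are the reads of a gene divided by a size factor per library, set by the authors within each week, so levels are compared within a week. OA was compared with sham in limma on log2(normalized reads + 1), over 14861 genes at 4 weeks and 14666 at 12 weeks. Calls needed a Benjamini-Hochberg adjusted p under 0.05 and a log2 fold change past 0.5 up or down. By this rule 0 of the 9 members were called at 4 weeks and 0 at 12 weeks, against a background of 0% of all genes at each week. At an unadjusted limma p under 0.05, 4 of 9 members passed at 4 weeks, 1 higher and 3 lower in OA, where 7.92% of all genes did (4.10% higher, 3.82% lower). At 12 weeks 4 of 9 passed, 2 higher and 2 lower, where 12.4% of all genes did (5.75% higher, 6.62% lower). edgeR on the recovered reads called 0 members and 0% of all genes at either week. DESeq2 called 0 members at 4 weeks, where it called 0.159% of all genes, and 2 at 12 weeks, Trem2 and Cd9, where it called 0.695%. Differences that missed the adjusted threshold are given as values.

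**Figure D1:**
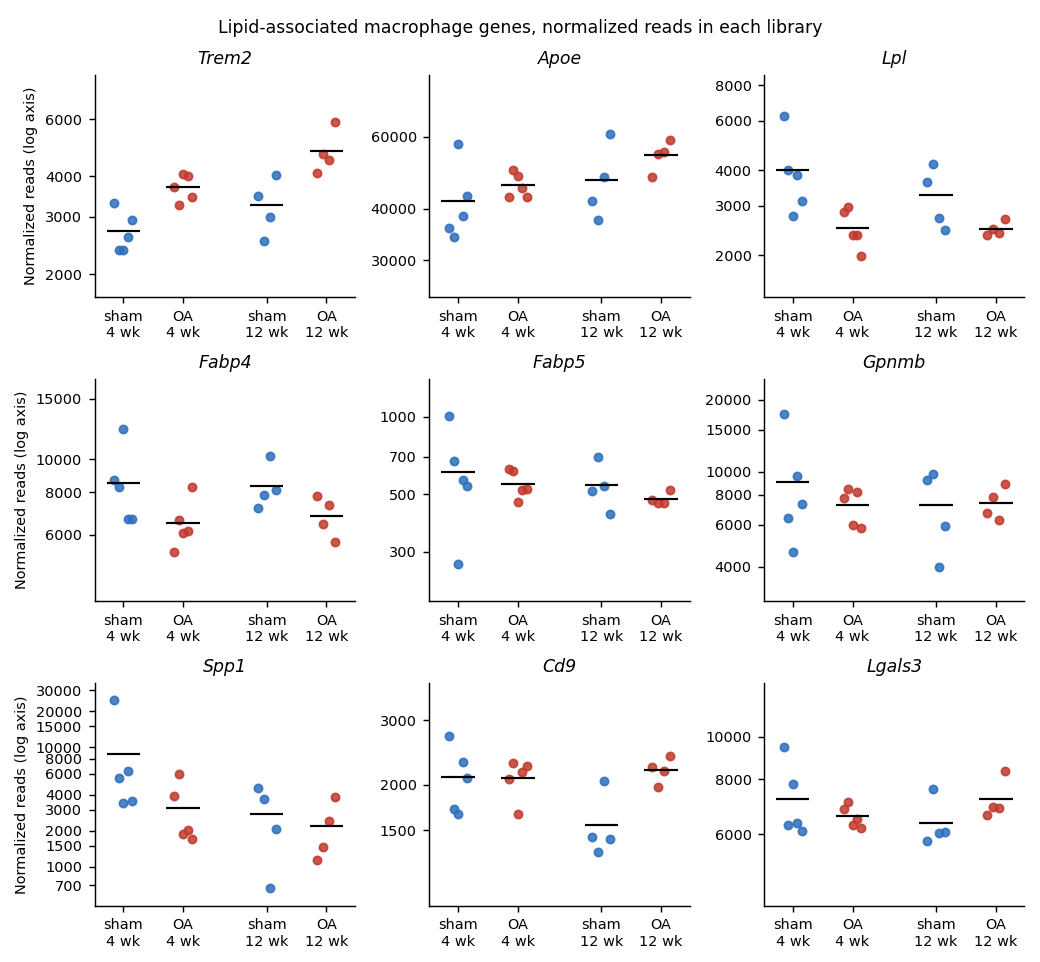
Normalized reads (log axis) of the 9 genes in each library, with sham in blue, OA in red and a horizontal line at the group mean, for 5 libraries a group at 4 weeks and 4 a group at 12 weeks. The OA points of Trem2 at 12 weeks all lie above the sham points, and a single sham library at 4 weeks stands far above the rest in Spp1, at 24590 normalized reads.

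Trem2, the lipid-sensing receptor that defines the program, had the higher mean in OA at both weeks. Its normalized reads at 4 weeks were 3708, 3274, 4062, 3995 and 3454 in OA and 3299, 2378, 2374, 2595 and 2927 in sham. The groups overlapped by a single pair of libraries, with 4 of 5 OA libraries above every sham library. The means were 3699 ± 339 (SD, n = 5) and 2715 ± 397 (SD, n = 5), a log2 fold change of 0.45 (SE 0.11) with an adjusted p of 0.403 in limma and an exact two-sided permutation p of 0.0159.

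At 12 weeks Trem2 had 4108, 4686, 4487 and 5878 normalized reads in OA and 3484, 2531, 2994 and 4031 in sham. No OA library fell inside the sham range. Trem2 was the single member of 9 whose groups did not overlap at 12 weeks, where 6.29% of all genes did not, while at 4 weeks there was no such member among the 9, against 1.87% of all genes. The difference at 12 weeks was 0.56 on the log2 scale (SE 0.15), with adjusted p-values of 0.278 in limma and 0.0444 in DESeq2. The DESeq2 call was lost without sham replicate 3 (adjusted p 0.0506). The exact two-sided permutation p was 0.0286, the smallest that 4 against 4 libraries allow. Leaving out each library in turn kept the log2 fold change of Trem2 between 0.41 and 0.53 at 4 weeks and between 0.45 and 0.67 at 12 weeks. The OA effect on Trem2 differed between weeks by 0.14 on the log2 scale (95% interval -0.24 to 0.53).

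The 250 bases ahead of the RefSeq starts of Trem2, Gpnmb and Spp1 are shown because Trem2 was the member whose groups did not overlap at 12 weeks and the levels of Gpnmb and Spp1 had a positive r across libraries at both weeks, although it missed the adjusted threshold. They are from the GRCr8 assembly, not the Rnor6 build the reads were aligned to, and are written 5′ to 3′ on the gene's strand. For Trem2 this is chr9:20151780-20152029 on the minus strand, for Gpnmb chr4:79340878-79341127 on the plus strand and for Spp1 chr14:5619805-5620054 on the minus strand. Capitals mark 3 motifs searched on both strands: CATGTG, which appears as CACATG in the other orientation and is part of the M-box that Mitf family factors bind, then GAGGAA, the core bound by the myeloid factor PU.1 and written TTCCTC when read from the opposite strand, and finally TGAGTCA, the AP-1 site, whose reverse complement differs at its middle base alone. None of the matches overlap.
Trem2: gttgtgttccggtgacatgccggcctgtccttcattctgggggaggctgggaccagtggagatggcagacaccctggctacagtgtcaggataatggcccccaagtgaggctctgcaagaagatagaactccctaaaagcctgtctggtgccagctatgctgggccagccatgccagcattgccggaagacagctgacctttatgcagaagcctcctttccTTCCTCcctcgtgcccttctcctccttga
Gpnmb: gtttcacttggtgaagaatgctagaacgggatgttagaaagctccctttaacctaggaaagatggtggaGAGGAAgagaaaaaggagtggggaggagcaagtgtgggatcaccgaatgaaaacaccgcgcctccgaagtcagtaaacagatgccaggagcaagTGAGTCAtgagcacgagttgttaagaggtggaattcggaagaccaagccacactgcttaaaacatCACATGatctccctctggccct
Spp1: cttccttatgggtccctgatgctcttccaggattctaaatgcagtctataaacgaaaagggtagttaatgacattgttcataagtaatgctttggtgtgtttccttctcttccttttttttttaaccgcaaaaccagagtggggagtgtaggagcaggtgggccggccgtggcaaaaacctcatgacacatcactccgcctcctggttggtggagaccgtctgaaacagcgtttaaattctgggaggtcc
Of 33469 windows of this length in the RefSeq table, 12.1% hold CATGTG, 23.3% GAGGAA and 4.05% TGAGTCA in either direction. The Gpnmb window holds all 3, with CACATG starting 22 bases and TGAGTCA 87 bases before the start. The Trem2 window holds TTCCTC, 29 bases before the start, and the Spp1 window holds no match. These are letter matches only.

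Apoe, the lipoprotein that carries cholesterol out of macrophages and binds Trem2, ranged from 42656 to 49768 normalized reads in OA (median 44950) and from 34090 to 57707 in sham (median 38485) at 4 weeks. At 12 weeks it ranged from 47823 to 58987 in OA and from 37567 to 60764 in sham. OA lay within the sham range at both weeks. The log2 fold changes were 0.15 (SE 0.14) at 4 weeks and 0.22 (SE 0.16) at 12 weeks, with adjusted p of 0.783 and 0.576 in limma. They were 0.083 without sham replicate 2 and 0.27 without sham replicate 3 at 4 weeks, and 0.12 without sham replicate 2 and 0.35 without sham replicate 4 at 12 weeks.

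Lpl, the enzyme that releases fatty acids from circulating triglyceride, had the lower mean in OA at both weeks. Its normalized reads at 4 weeks were 2852, 2967, 2349, 2354 and 1986 in OA and 6242, 4005, 2746, 3855 and 3121 in sham. Of 5 OA libraries, 3 were below every sham library and none was above the sham median. The means of 2501 ± 403 (SD, n = 5) and 3994 ± 1360 (SD, n = 5) gave a log2 fold change of -0.63 (SE 0.19), an adjusted p of 0.511 in limma and an exact two-sided permutation p of 0.0238. Without sham replicate 1, which had the highest value, the log2 fold change was -0.45, and without sham replicate 3, the shallowest library, it was -0.75.

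At 12 weeks Lpl had 2365, 2477, 2399 and 2678 normalized reads in OA and 3649, 4204, 2709 and 2462 in sham. The OA libraries lay close together, with a coefficient of variation of 5.66% against 25.0% in sham, and the groups overlapped. Lpl differed by -0.36 on the log2 scale (SE 0.15), with a limma adjusted p of 0.378 and an exact two-sided permutation p of 0.0857. It was -0.23 without sham replicate 2.

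Fabp4, a fatty acid carrier of macrophages and adipocytes, also had lower means in OA. At 4 weeks its normalized reads were 5352, 6607, 6078, 6160 and 8263 in OA and 8660, 8253, 12280, 6649 and 6660 in sham. All OA libraries but replicate 5 were below every sham library. At 12 weeks they were 7793, 6432, 7332 and 5729 in OA and 7189, 7853, 10238 and 8132 in sham, with 2 of 4 OA libraries below every sham library. The log2 fold changes were -0.37 (SE 0.17) and -0.29 (SE 0.13), with limma adjusted p of 0.629 and 0.397 and exact two-sided permutation p of 0.0556 and 0.114. The highest value at each week came from sham replicate 3, and without it the log2 fold changes were -0.22 and -0.19. At 4 weeks that library also had the highest summed level of 12 adipocyte markers among sham, 5227 normalized reads, where sham ranged from 3255 and OA from 3465 to 5422. At 12 weeks it had the lowest such sum among sham, 5425, where sham ranged up to 8840 and OA from 5716 to 6968. The mean log2 level, which weighs each marker alike, ranked this library otherwise. At 4 weeks sham replicate 3 had 6.23, the highest of that week, where OA reached 4.70. At 12 weeks it had 4.74, where sham ranged from 4.35 to 4.91 and OA from 4.29 to 4.85.

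Fabp5, the related carrier, ranged from 466 to 627 normalized reads in OA and from 269 to 1003 in sham at 4 weeks, and from 462 to 521 and from 421 to 699 at 12 weeks. OA lay within the sham range at both weeks, with log2 fold changes of -0.04 (SE 0.26) and -0.15 (SE 0.13) and limma adjusted p of 0.976 and 0.636. At 4 weeks the highest sham value came from replicate 1 and the lowest from replicate 3.

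Spp1, the secreted phosphoprotein osteopontin, was the most variable member. At 4 weeks its normalized reads were 3883, 5961, 1885, 2035 and 1695 in OA and 24590, 5529, 3410, 6324 and 3533 in sham. Of 5 OA libraries, 3 were below every sham library, and OA replicate 2 was above 3 of the 5 sham libraries. Spp1 differed by -1.22 on the log2 scale (SE 0.51), with a limma adjusted p of 0.607 and an exact two-sided permutation p of 0.0952, and it was -0.73 without sham replicate 1. At 12 weeks Spp1 had 1130, 1469, 2419 and 3790 normalized reads in OA and 4542, 3687, 660 and 2084 in sham. These groups overlapped throughout, with a log2 fold change of -0.15 (SE 0.56) that lay between -0.73 and 0.20 over fits that each omitted a library.

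Gpnmb, a glycoprotein of lysosomes and the cell surface, ranged from 5836 to 8478 normalized reads in OA and from 4623 to 17469 in sham at 4 weeks, and from 6293 to 8860 and from 4012 to 9748 at 12 weeks. OA lay within the sham range at both weeks. The log2 fold changes were -0.19 (SE 0.28) and 0.11 (SE 0.25), with limma adjusted p of 0.863 and 0.867, and the sign at 4 weeks turned without sham replicate 1 (0.09) and at 12 weeks without sham replicate 3 (-0.14).

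Cd9, a tetraspanin that organises membrane proteins, showed no separation at 4 weeks, with 1656 to 2284 normalized reads in OA and 1664 to 2712 in sham. At 12 weeks it had 2238, 1971, 2179 and 2392 normalized reads in OA and 1432, 1304, 2047 and 1419 in sham. Of 4 OA libraries, 3 were above every sham library, and sham replicate 3 alone reached the OA range. The means of 2195 ± 174 (SD, n = 4) and 1550 ± 336 (SD, n = 4) gave a log2 fold change of 0.52 (SE 0.13), with an adjusted p of 0.275 in limma and 0.0448 in DESeq2 and an exact two-sided permutation p of 0.0571. Without sham replicate 3 the log2 fold change was 0.66 and the limma adjusted p 0.0112. At 4 weeks the log2 fold change of Cd9 was 0.01 (SE 0.14), and -0.019 with TMM scaling. In the fit over all 18 libraries Cd9 was the single member of 9 whose OA effect differed between weeks at an unadjusted limma p under 0.05, where 3.18% of all genes did. The difference of 0.55 (SE 0.20) had an adjusted p of 0.956, and 0 members were called in this contrast by limma, edgeR or DESeq2, against 0% of all genes by each tool.

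Lgals3, a galectin that binds damaged lysosomes, ranged from 6214 to 7109 normalized reads in OA and from 6090 to 9461 in sham at 4 weeks. At 12 weeks it had 6645 to 8376 in OA and 5780 to 7609 in sham. The log2 fold changes were -0.11 (SE 0.12) and 0.18 (SE 0.11), with limma adjusted p of 0.808 and 0.501, and the groups overlapped at both weeks. The 4-week value was -0.0064 without sham replicate 1 and -0.17 without sham replicate 5, and the 12-week value 0.10 without OA replicate 4 and 0.27 without sham replicate 2.

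Across the 9 members the median log2 fold change was -0.11 at 4 weeks, with 3 higher and 6 lower in OA, and 0.11 at 12 weeks, with 5 higher and 4 lower. The medians over all genes tested were 0.03 and -0.01. The members differed in sign: Trem2 had a higher and Lpl and Fabp4 a lower mean in OA at both weeks, while the Apoe differences had the sign of those of Trem2 with 95% intervals of -0.16 to 0.46 and -0.14 to 0.58.

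**Figure D2:**
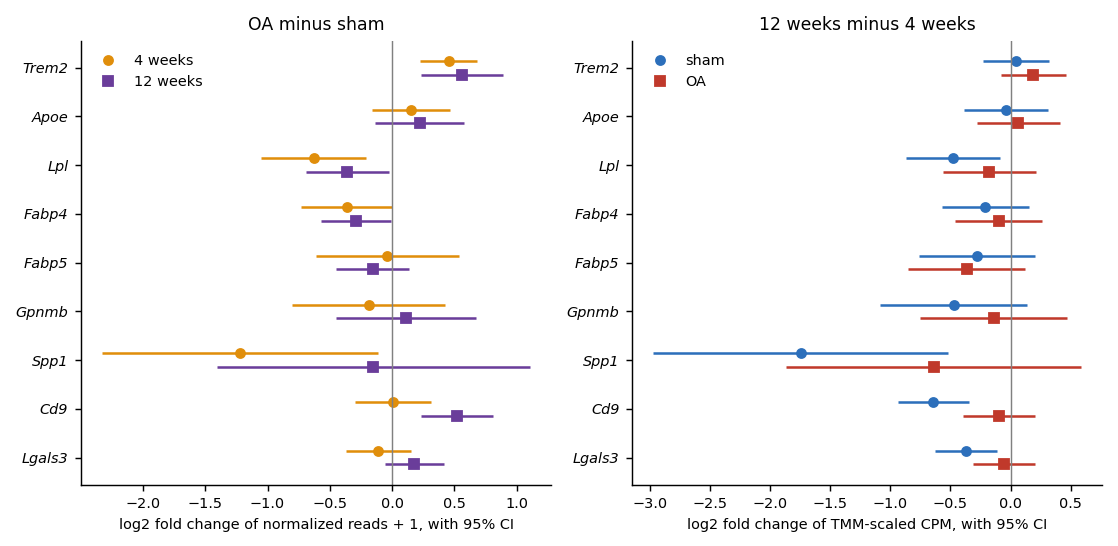
Left, log2 fold change of normalized reads + 1 between OA and sham for each member at 4 weeks (orange circles, 5 against 5 libraries) and 12 weeks (purple squares, 4 against 4). Right, log2 fold change of TMM-scaled CPM between 12 and 4 weeks in sham (blue circles) and OA (red squares); bars are 95% limma intervals. The intervals of Trem2 lie above 0 at both weeks in the left panel, and Cd9 in sham, at -0.64, is the single called value in the right panel.

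To set the weeks on a single scale, the recovered reads were expressed as CPM, reads scaled to a common library total, with TMM scaling to correct for library composition. Week 12 differed from week 4 in time, in the number of rats per pool and in any handling shared by an endpoint, and these cannot be told apart. In sham libraries Cd9 fell, from 226, 145, 149, 196 and 176 CPM at 4 weeks to 105, 95.9, 153 and 105 CPM at 12 weeks. Sham replicate 3 at 12 weeks lay within the 4-week range and the others below it. The log2 fold change was -0.64 (SE 0.14, adjusted p 0.0241 in limma), making Cd9 the 1 of 9 members called, where 1.41% of all genes were. edgeR and DESeq2 called the same member and no other, against 1.35% and 3.13% of all genes. The call was lost without sham replicate 1, 2 or 4 of 12 weeks, with adjusted p of 0.0772, 0.0609 and 0.0842, and when every gene with a read was tested (0.0870). The sham libraries of 12 weeks are the same that enter the OA comparison of Cd9 above. In OA libraries Cd9 was 175 ± 21.4 CPM (SD, n = 5) at 4 weeks and 163 ± 14.1 CPM (SD, n = 4) at 12 weeks, a log2 fold change of -0.10 (SE 0.14, limma adjusted p 0.820).

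Spp1, Lpl and Lgals3 also had lower means in sham at 12 than at 4 weeks. Their log2 fold changes were -1.74 (SE 0.59), -0.48 (SE 0.19) and -0.37 (SE 0.12), with limma adjusted p of 0.123, 0.178 and 0.116. With Cd9 they made 4 of 9 members at an unadjusted limma p under 0.05, all lower at 12 weeks, where 8.97% of all genes were lower and 19.2% passed in either direction. In OA libraries 0 of 9 members were called between weeks by limma, edgeR or DESeq2 and 0 passed the unadjusted limma p, where 14.6% of all genes did. The shares of all genes called were 0.937% in limma, 1.07% in edgeR and 1.95% in DESeq2. Trem2 had 231 ± 29.3 CPM in sham at 4 weeks and 241 ± 47.2 at 12 weeks, and 311 ± 29.2 and 356 ± 59.2 in OA (SD, n = 5 and 4), with log2 fold changes of 0.05 (SE 0.13) and 0.19 (SE 0.13).

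Over the 10 libraries of 4 weeks Lpl and Spp1 had a Pearson r of 0.960 (permutation p 5e-05, adjusted 0.0036 over 72 pairs and weeks) and a Spearman rho of 0.915 (permutation p 0.00049, adjusted 0.0353). The r was 0.868 without the 2 libraries farthest from the median of Lpl and 0.956 with OA and sham each centred on its own mean. At 12 weeks r was 0.570 (exact permutation p 0.144, adjusted 0.340), rho was 0.452 (exact permutation p 0.267, adjusted 0.535) and r without the 2 farthest libraries was -0.079. There sham replicate 3 combined the lowest Spp1 with a mid-range Lpl. Gpnmb and Spp1 had r of 0.80 at 4 weeks and 0.841 at 12 weeks, rho of 0.782 and 0.738, permutation p of 0.0110 and 0.00861 for r, and an adjusted p of 0.103 for both. Without the 2 farthest libraries r was 0.610 and 0.607. Apoe and Fabp5 had r of -0.805 and -0.790, rho of -0.721 and -0.619, permutation p of 0.00681 and 0.0133 for r, and an adjusted p of 0.103 for both, with r of -0.66 and -0.48 without the 2 farthest. No pair other than Lpl and Spp1 at 4 weeks passed the adjusted threshold.

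**Figure D3:**
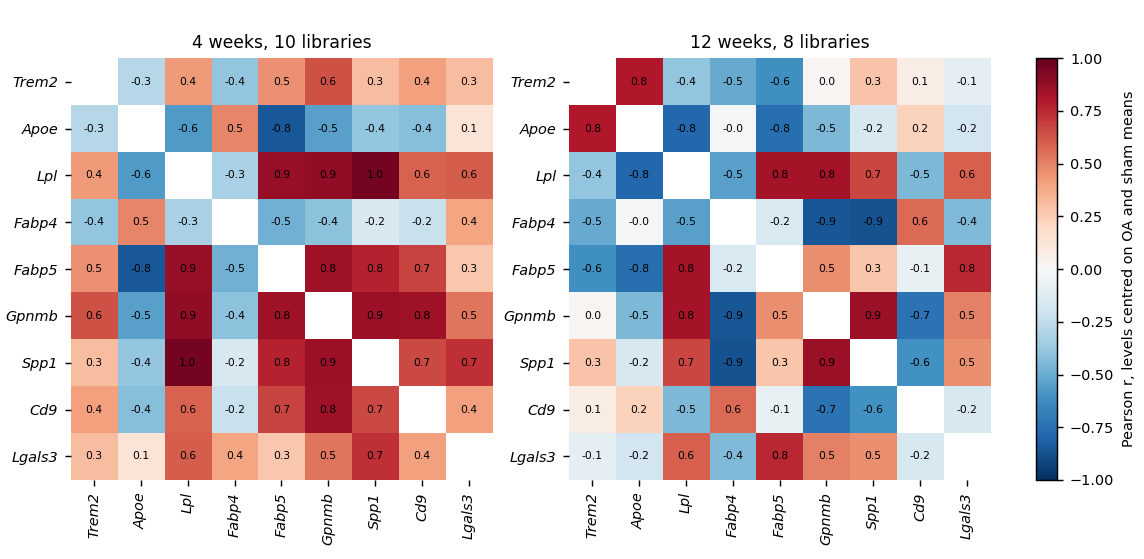
Pearson r between the log2 levels of each pair of members, with OA and sham each centred on its own mean, over 10 libraries at 4 weeks (left) and 8 libraries at 12 weeks (right); red is positive and blue negative. Lpl and Spp1 reach 0.956 at 4 weeks, Gpnmb and Spp1 are positive at both weeks, and Apoe and Fabp5 negative at both.

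The levels of some marker lists, of macrophages and of other cells, moved with some members. The 7 resident macrophage markers, which include Lyve1, Folr2 and Vsig4, had a higher mean log2 level in OA, 12.4 against 12.1 at 4 weeks and 13.1 against 12.8 at 12 weeks. Over the 8 libraries of 12 weeks Trem2 followed this level with r of 0.943 (exact permutation p 0.000322, adjusted 0.0290 over 90 relations) and rho of 0.905 (exact permutation p 0.00456, adjusted 0.201). The r was 0.872 without the 2 libraries farthest from the median. At 4 weeks r was 0.679 (permutation p 0.0304, adjusted 0.186) and rho 0.745 (permutation p 0.0174, adjusted 0.224), and with centred groups r was 0.10 and rho 0.139. At 12 weeks, with OA and sham each centred on its own mean, r was 0.889, and no centred relation passed the adjusted threshold. The 11 fibroblast markers were also higher in OA, at a mean log2 level of 11.6 against 11.2 at 12 weeks and 11.2 against 10.8 at 4 weeks. Over OA and sham libraries together at 12 weeks, Cd9 had r of 0.922 with them (exact permutation p 0.00419, adjusted 0.0971). The rho was 0.857 (exact permutation p 0.0107, adjusted 0.201). As Cd9 was also higher in OA at 12 weeks, this r includes the difference between the groups. At 4 weeks r was 0.242 (permutation p 0.491, adjusted 0.640) and rho 0.321 (permutation p 0.366, adjusted 0.591). Sham replicate 3, the sham library with the most Cd9, also had the highest fibroblast level of the sham libraries at 12 weeks.

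The 7 osteoclast markers had a mean log2 level of 6.01 in OA and 6.99 in sham at 4 weeks, and 5.98 and 5.58 at 12 weeks. At 4 weeks the medians of the most abundant, Acp5 and Ctsk, were 1166 and 866 normalized reads in OA and 1113 and 928 in sham, while the low marker Ocstamp had 4.34 to 11.4 in OA and 16.3 to 40.5 in sham. Lpl and Spp1 each had r of 0.78 and rho of 0.782 with the list at 4 weeks (permutation p for r 0.00588 and 0.00472, adjusted 0.0971 for both, and for rho 0.0112 and 0.0108, adjusted 0.201 for both). At 12 weeks r was -0.10 and 0.514 (exact permutation p 0.807 and 0.195, adjusted 0.885 and 0.449), with rho of -0.12 and 0.452. Fabp4 had r of 0.859 with 12 endothelial markers at 12 weeks (exact permutation p 0.00746, adjusted 0.0971), and 0.418 without the 2 farthest libraries. The r of Fabp4 with the osteoclast markers at 12 weeks was -0.893 (exact permutation p 0.00357, adjusted 0.0971), and -0.644 without the 2 farthest libraries. At 4 weeks this r had the opposite sign, 0.350 (permutation p 0.331, adjusted 0.583). With the resident macrophage markers at 4 weeks, Lpl and Spp1 had r of -0.779 and -0.781 (permutation p 0.00844 and 0.00863, adjusted 0.0971 for both). Without the 2 farthest libraries r was -0.586 and -0.491. The rho was -0.648 and -0.552 (permutation p 0.0497 and 0.105, adjusted 0.373 and 0.474). At 12 weeks r was -0.552 for Lpl and 0.292, of the opposite sign, for Spp1 (exact permutation p 0.133 and 0.475, adjusted 0.351 and 0.637). These r are over OA and sham libraries together. What part the cells marked by these lists had in the OA differences of Trem2, Cd9, Lpl, Spp1 and Fabp4 was not tested.

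**Figure D4:**
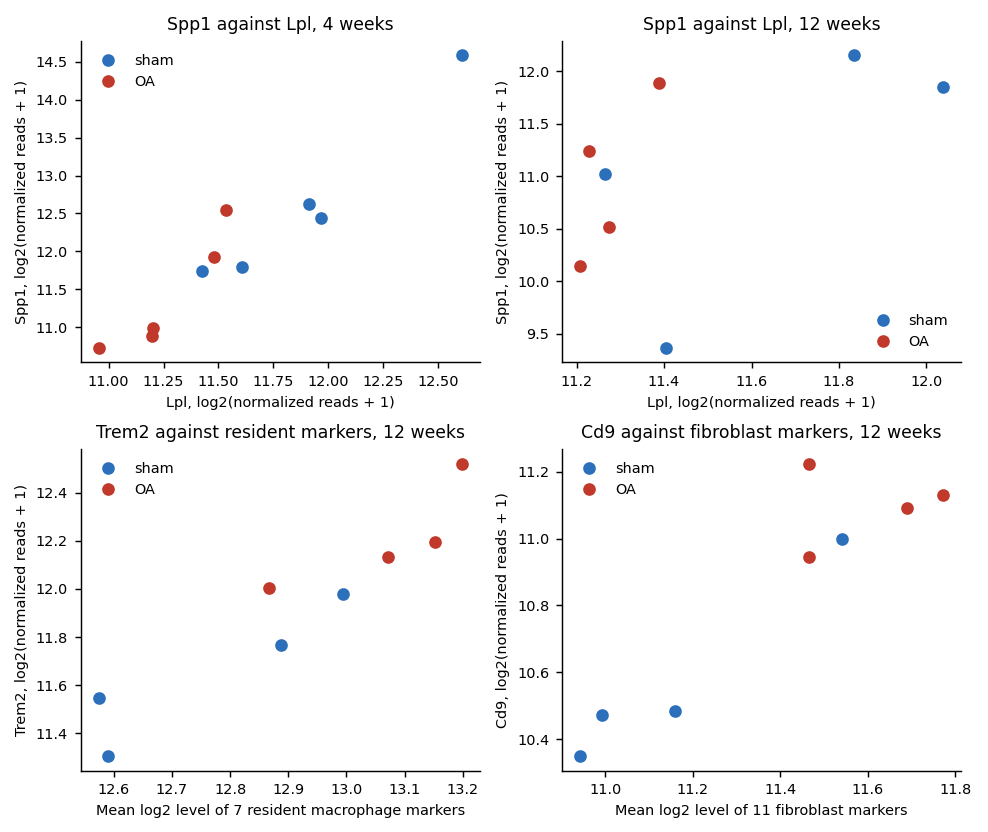
Top, log2(normalized reads + 1) of Spp1 against that of Lpl in each library at 4 weeks (left) and 12 weeks (right). Bottom, at 12 weeks, Trem2 against the mean log2 level of 7 resident macrophage markers (left, r = 0.943) and Cd9 against that of 11 fibroblast markers (right, r = 0.922), with r over OA and sham together; OA is red and sham blue, each point is a library, and OA libraries lie toward the upper right in both lower panels.

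The genes whose variation was most like that of Trem2 were sought over the 10 libraries of 4 weeks with group means removed, among 10214 genes that averaged 100 or more normalized reads. The 5 highest r were those of Tbc1d2 (0.985), Snx16 (0.959), Apbb1ip (0.941), Slc35f6 (0.919) and Tmem86a (0.917). Over the 8 libraries of 12 weeks, which were not used to choose them, r was 0.781, -0.53, 0.08, 0.752 and 0.780. The exact permutation p for Tbc1d2, Slc35f6 and Tmem86a at 12 weeks were 0.0205, 0.0344 and 0.0240, or 0.0573 for each after adjustment over the 5 genes. The Spearman coefficients at 12 weeks were 0.786, 0.762 and 0.810, with adjusted p of 0.0613 for each.

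Genes that work beside the members were counted in 4 companion lists. In OA against sham 0 of their genes were called by limma at either week. In Trem2 signalling (Tyrobp, Syk, Plcg2 and others), 0 of 14 tested genes passed the unadjusted limma p at 4 weeks and 2 did at 12 weeks, 1 in each direction, with median log2 fold changes over the list of 0.11 and 0.034. Of all genes, 7.92% passed at 4 weeks and 12.4% at 12 weeks. Tyrobp, the signalling adaptor of Trem2, had 3163 ± 273 and 2999 ± 294 normalized reads in OA and sham at 4 weeks (SD, n = 5) and 3726 ± 324 and 3281 ± 598 at 12 weeks (SD, n = 4), with overlapping groups. The smallest p at 12 weeks were those of the protease Adam17, which sheds Trem2 (log2 fold change 0.19, SE 0.07), and the kinase Ptk2b (-0.15, SE 0.06), with limma adjusted p of 0.338 and 0.377. At 4 weeks they were those of the exchange factor Vav1 (0.26, SE 0.12) and the protease Adam10 (0.22, SE 0.11), with limma adjusted p of 0.633 and 0.639.

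Among lipid uptake and efflux genes 4 of 17 passed the unadjusted limma p at 4 weeks, 3 of them higher, and 6 of 17 at 12 weeks, 3 in each direction, with medians of 0.11 and 0.051, where 7.92% and 12.4% of all genes passed. Msr1, a scavenger receptor for modified lipoproteins, had 5205 to 6906 normalized reads in OA and 2781 to 4909 in sham at 4 weeks, and 6045 to 8736 and 4134 to 6040 at 12 weeks. Its groups did not overlap at either week, where those of 1.87% and 6.29% of all genes did not, and it was named for its small p. Its log2 fold changes were 0.65 (SE 0.14, adjusted p 0.349) and 0.50 (SE 0.14, adjusted p 0.278) in limma. DESeq2 called Msr1 at 4 weeks (log2 fold change 0.63), where it called 0.159% of all genes. The very low density lipoprotein receptor Vldlr at 4 weeks (0.51, SE 0.18, limma adjusted p 0.570) and the scavenger receptor and chemokine Cxcl16 at 12 weeks (0.36, SE 0.11, limma adjusted p 0.299) were next by p.

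Of 22 lipid droplet and lysosomal lipid genes, 5 passed at 4 weeks (3 higher, 2 lower) and 6 at 12 weeks (4 higher, 2 lower), with medians of 0.045 and 0.049, against the same 7.92% and 12.4% of all genes. Fabp3, a fatty acid carrier like Fabp4, had 140 ± 29.0 normalized reads in OA and 90.3 ± 4.80 in sham at 4 weeks (SD, n = 5), and 175 ± 24.3 and 125 ± 16.3 at 12 weeks (SD, n = 4). Its log2 fold changes of 0.60 (SE 0.15, limma adjusted p 0.403) and 0.48 (SE 0.14, limma adjusted p 0.280) had the sign opposite to those of Fabp4. Npc2, which moves cholesterol out of lysosomes, differed by 0.36 (SE 0.09, limma adjusted p 0.403) at 4 weeks. Cpt1a, which lets fatty acids into mitochondria, differed by -0.35 (SE 0.09, limma adjusted p 0.278) at 12 weeks.

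Of 30 lysosomal, integrin and state genes linked to Gpnmb and Spp1, 7 passed at 4 weeks and 10 at 12 weeks, all of them higher in OA, although neither Gpnmb nor Spp1 passed on the higher side. The median log2 fold change of this list was 0.09 at 4 weeks and 0.17 at 12 weeks, against 0.03 and -0.01 over all genes, and 4.10% and 5.75% of all genes passed on the higher side. The mean log2 level of the 14 macrophage markers was 12.5 in OA and 12.4 in sham at 4 weeks and 12.8 and 12.7 at 12 weeks, and its part in this median was not tested. Examples were the lysosomal protease Ctsl (0.21, SE 0.07, limma adjusted p 0.567) and the integrin Itgb5 (0.27, SE 0.09, limma adjusted p 0.567) at 4 weeks. At 12 weeks they were the osteopontin-binding integrin Itga9 (0.34, SE 0.08, limma adjusted p 0.265) and the transcription factor Mitf (0.30, SE 0.08, limma adjusted p 0.278), each with all OA libraries above sham. The groups of 6.29% of all genes did not overlap at that week, and Itga9 and Mitf were named for their small p. In sham libraries from 4 to 12 weeks, limma called 1.41% of all genes. Of the 89 companion genes listed it called the lysosomal lipase Lipa (-0.53, SE 0.13, adjusted p 0.0423). It also called the osteopontin-binding integrin subunit Itgb3 (-0.75, SE 0.16, adjusted p 0.0216) and the triglyceride-making enzyme Dgat1 (0.52, SE 0.08, adjusted p 0.00287). The call of Lipa was lost without any of 8 of the 9 sham libraries in turn, that of Itgb3 without sham replicate 2 or 4 of 12 weeks, and that of Dgat1 by its fold (0.47) without sham replicate 3 of 12 weeks.

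**Figure D5:**
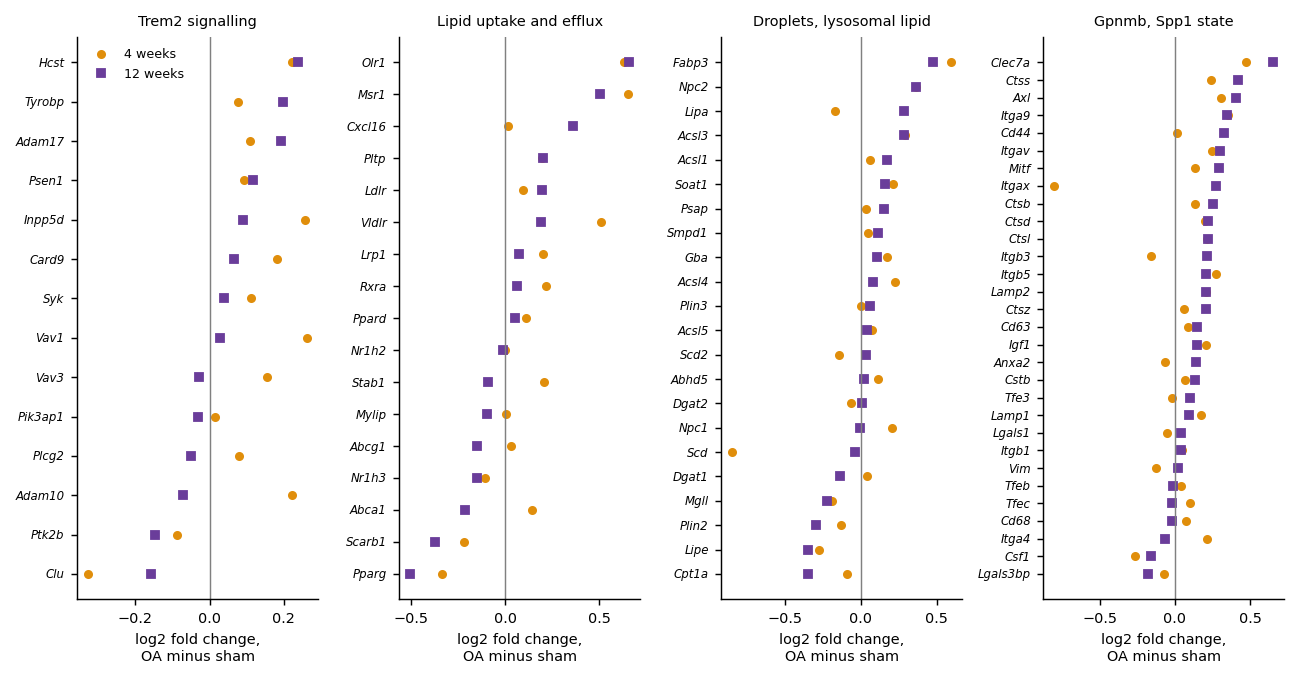
Log2 fold change between OA and sham of each tested gene in 4 companion lists at 4 weeks (orange circles) and 12 weeks (purple squares), ordered by the 12-week value. Most genes linked to Gpnmb and Spp1 lie to the right of 0, 22 of 30 at 4 weeks and 24 of 30 at 12 weeks. Of all genes tested, 8487 of 14861 were above 0 at 4 weeks and a minority, 6961 of 14666, at 12 weeks.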

How the data were processed

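RNA was measured in 18 libraries of CD11b/c-sorted rat synovial cells, grouped by surgery and week from the sample labels. The labels and tables hold 4 libraries a group at 12 weeks, where the methods state 5, and the labels were used. The authors checked reads with fastp 0.20.0, aligned them to Rnor6 with STAR 2.7.6a, used Sambamba to drop duplicates, assigned reads to genes with featureCounts 2.0.0 and normalized them with DESeq2 1.24.0 within each week. Whether that step used strand is not given in the sources used here. The authors deposited normalized reads, a signal at or above 0. Every deposited value was a whole multiple of a single read (tolerance 0.01), so the count of reads was recovered. The authors' log2 fold changes, p-values and Wald score in the deposited tables, and their mean, were not used.

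OA was compared with sham in limma 3.58.1 (R 4.3.3, mean-variance trend) on log2(normalized reads + 1), for genes with a mean of at least 10, with Benjamini-Hochberg adjustment over all genes tested. DESeq2 1.42.0 and edgeR 4.0.16 (quasi-likelihood) were run on recovered reads. Weeks were compared in limma on TMM-scaled log2 CPM with a prior count of 2, in a fit of all 18 libraries over 14732 genes. Single genes were tested by exact two-sided permutation, correlations by permutation (exact for 8 libraries, 100000 resamples for 10). Intervals are 95%. Alternatives were a pseudocount of 0.5 or 5, other filters on low values, TMM scaling, a replicate block and each library left out. The scripts were tested on simulated data. Libraries of a group differed by more than sampling noise (chi-square per degree of freedom 5.84 to 38.8 over 32 pairs). Python 3.11.15, numpy 2.4.6, pandas 2.3.3, scipy 1.17.1 and matplotlib 3.10.9 were used.

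The members and gene lists were chosen with earlier results of these data known, and the promoter motifs after the values were seen. All members are named, as are the 2 genes of each companion list with the smallest p at each week, every companion called, and the 5 genes most like Trem2. Tyrobp, outside this rule, was named after its values were seen. Labels name pools of rats as separate samples, so p-values measure the spread between pools.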

Additional observations from a re-analysis of the deposited data

Results flagged for a closer look

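Of 36 groups of member values, each a gene in the libraries of a surgery and week, 3 held a library that stood apart from the others. The rule used would flag about 1 in 20 groups of independent, normally distributed values. It was applied to normalized reads without a log, and the 36 groups share the same 18 libraries, so that rate is only a rough guide. Spp1 in sham replicate 1 at 4 weeks was 24590 normalized reads, against 3410 to 6324 in the other sham libraries. Lgals3 in OA replicate 4 at 12 weeks was 8376, against 6645 to 6911 in the other OA libraries. Lgals3 in sham replicate 2 at 12 weeks was 7609, against 5780 to 6057 in the other sham libraries. Sham replicate 1 at 4 weeks also had the highest Trem2 (3299 normalized reads), Lpl, Gpnmb, Fabp5, Cd9 and Lgals3 of its group. Its summed marker levels were the lowest of the group for macrophages, resident macrophages, fibroblasts, endothelial cells, adipocytes and skeletal muscle. They were the highest for monocytes and neutrophils and for dendritic cells.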

How the results depend on the processing

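Of 774 values of member log2 fold changes under an alternative, 732 kept direction and side of the threshold. Members called in OA against sham were 0 under every alternative at 4 weeks except DESeq2 without sham replicate 3, which called 1 (Lpl, log2 fold change -0.78). In that DESeq2 fit Trem2 had an adjusted p of 0.0261 but a log2 fold change under 0.5, so it was not called. At 12 weeks DESeq2 called 2, leaving out each library in limma gave 0 to 1, and edgeR and DESeq2 without sham replicate 3 called 1 each (Cd9). In sham at 12 against 4 weeks, 0 were called with every gene with a read and 0 to 1 with each library left out. Relations between members and markers past the adjusted threshold went from 1 to 0 with centred levels. The fits of edgeR and DESeq2 without a sham replicate 3, and that of TMM scaling, were added after the data were seen.

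Directions turned for values near 0. Cd9 at 4 weeks was -0.019 with TMM scaling, -0.032 in edgeR and -0.011 in DESeq2, and without sham replicate 3 it was -0.076 with TMM scaling, -0.086 in edgeR and -0.081 in DESeq2. Gpnmb at 12 weeks without sham replicate 3 was -0.15 in edgeR and -0.16 in DESeq2. Apoe in sham between weeks was 0.034 with every gene with a read, and the difference of the Fabp5 effect between weeks was 0.013 in edgeR. With each library left out, OA against sham spanned -0.39 to 0.085 for Gpnmb, -0.071 to 0.11 for Cd9 and -0.30 to 0.17 for Fabp5 at 4 weeks, and -0.14 to 0.28 for Gpnmb and -0.73 to 0.20 for Spp1 at 12 weeks. The difference between weeks spanned -0.038 to 0.22 for Fabp4, -0.023 to 0.24 for Apoe and -0.28 to 0.18 for Fabp5, and sham between weeks -0.063 to 0.16 for Trem2 and -0.17 to 0.094 for Apoe. The cause was not tested. The median log2 fold change of all genes moved from 0.03 to -0.12 in DESeq2 at 4 weeks, which fitted 29631 genes, low ones included.

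The labels state no pairing of OA and sham libraries by replicate number. Deviations of same-numbered libraries from their group means correlated at -0.13 to 0.08 at 4 weeks (0 of 5 over 0.1). At 12 weeks they correlated at -0.03 to 0.30 (1 of 4 over 0.1), highest for replicate 3. With 4 or 5 libraries a group these values cannot exclude a pairing. With a replicate block 0 members were called in OA against sham at 4 weeks, at 12 weeks or in the difference between weeks.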
